A study of Mus musculus with 4 samples.

Results

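The genes described here are 7 members and outputs of the circadian clock, Dbp, Per2, Cry1, Bhlhe40, Wee1, Rora and Noct, measured in the renal cortex of mice. They were picked by gene symbol from the platform's probe annotation, with their values on these arrays already known, so those values are given as a description and without a test. Each of the 7 had 1 probe, and together they are 7 of 9076 genes with a symbol. All mice were males on the C57BL/6J background, 20 weeks of age when kidneys were taken. DM-WT mice (ICAM-1+/+) received 200 mg/kg of streptozotocin, a toxin of insulin-producing beta cells, in citrate buffer at 8 weeks of age, 12 weeks before collection. ND-WT mice, also ICAM-1+/+, received citrate buffer alone. DM-KO mice carried the ICAM-1-/- genotype, the loss of an adhesion molecule of endothelium and leukocytes that is not restricted to kidney, and received streptozotocin at the same dose, age and interval. ND-KO mice were ICAM-1-/- and received the buffer alone. Only streptozotocin-treated mice whose blood glucose exceeded 16 mmol/L a week later entered the study. The labels name 5 mice per group with RNA taken from each specimen, yet 1 array stands for each group, and whether it carried pooled RNA or that of 1 mouse is not stated. With a single array in each group, no difference between arrays can be set against a spread of replicates.

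The mammalian clock is a feedback loop of transcription. CLOCK and BMAL1 (encoded by Arntl) bind E-box sequences and switch on the period and cryptochrome genes, whose proteins return to the nucleus and repress that activity. A side loop, in which ROR receptors activate and REV-ERB receptors repress Arntl, steadies the rhythm, and output factors such as DBP carry it to metabolic genes. In kidney the clock times sodium and water handling, and its genes swing in level over each day. The labels do not give the hour of collection, so hour and group cannot be told apart on these arrays.

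The cortex label was checked against marker genes. All 5 proximal tubule markers on the array were measured on all 4 arrays, and none of the adrenal or skeletal muscle markers was (0 of 3 and 0 of 2). Neither of the 2 podocyte markers on the array, Nphs1 and Podxl, was measured on any of them. Icam1 itself was not analysed here, which leaves the genotype of each array as labelled. A spot was called measured where the scanner software marked it usable, neither empty nor poor. Of 10032 gene probes, 62.8% were usable on DM-WT, 64.8% on ND-WT, 66.2% on DM-KO and 65.9% on ND-KO. On DM-WT, spots of columns 44 to 48 of the upper block were dim, but none of the 7 probes was printed there. Values below are log2 intensities after background correction with an added offset of 50 units and quantile normalization. The offset shrinks differences of dim probes, so folds in the authors' own scaled values are given beside them.

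Dbp encodes the D-box binding transcription factor, an output factor with a strong daily rhythm that drives detoxification and metabolic genes. Its log2 intensity was 9.43 on DM-WT, against 9.89 on ND-WT. It was 9.69 on DM-KO, against 10.37 on ND-KO. Dbp was thus lower on the diabetic array in both genotypes, by 1.38-fold in WT (log2 difference -0.46) and by 1.61-fold in KO (-0.68). In the authors' scaled values the same differences were 1.55-fold and 1.74-fold. Dbp was also higher on KO than on WT arrays, by 0.26 on the log2 scale in the diabetic pair and by 0.48 in the nondiabetic pair. The highest of the 4 values was thus that of ND-KO and the lowest that of DM-WT. The background-subtracted intensity of the spot ranged between 539 on DM-WT and 1359 on ND-KO, far above the 95th percentile of negative control spots, which was 7.15 to 9.49.

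Rora encodes a ROR receptor, the activating side of the loop that controls Arntl. Its log2 intensity was 7.14 on DM-WT and 7.79 on ND-WT, 7.64 on DM-KO and 7.83 on ND-KO. The DM-WT array alone stood apart, 1.57-fold below ND-WT (log2 difference -0.65), while DM-KO lay 1.14-fold below ND-KO (-0.19). Without DM-WT, the other 3 arrays differed by at most 1.14-fold. Between genotypes Rora was 0.50 higher on DM-KO than on DM-WT and 0.04 higher on ND-KO than on ND-WT.

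Per2 and Cry1 encode repressors of the loop, a period protein and a cryptochrome. Per2 had a log2 intensity of 6.80 on DM-WT, 6.86 on ND-WT and 6.28 on ND-KO, and its spot on DM-KO was marked empty. Per2 was therefore at least 1.74-fold lower on DM-KO than on DM-WT and at least 1.22-fold lower than on ND-KO. On ND-KO it was 1.49-fold lower than on ND-WT (log2 difference -0.58, and 2.33-fold in the authors' values). Both KO arrays thus lay below both WT arrays. With diabetes Per2 differed by only -0.06 in WT.

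Cry1 had the same order of arrays as Per2. Its log2 intensity was 6.32 on DM-WT, 6.52 on ND-WT and 6.15 on ND-KO, with an empty mark on DM-KO. It was lower by 1.29-fold on ND-KO than on ND-WT (log2 difference -0.37), and at least 1.22-fold lower on DM-KO than on DM-WT. The bound against ND-KO was at least 1.08-fold. The DM-KO spots of Per2 and Cry1 still gave background-subtracted intensities of 14.6 and 17.2, above the 95th percentile of negative controls on that array (7.15).

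Bhlhe40 encodes DEC1, a repressor that competes at E-boxes. Its log2 intensity was 7.69 on DM-WT and 7.99 on ND-WT, 7.40 on DM-KO and 7.67 on ND-KO. The diabetic array was lower by 0.31 in WT and by 0.27 in KO, and the KO array was lower by 0.29 in the diabetic pair and by 0.32 in the nondiabetic pair. The diabetes difference was thus of like size in both genotypes, and the genotype difference of like size in both states.

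Wee1 encodes a kinase that holds cells before mitosis and is a clock output in mouse liver. Its log2 intensity was 6.77 on DM-WT and 6.77 on ND-WT, 6.31 on DM-KO and 6.49 on ND-KO. Both KO arrays were below both WT arrays, by 1.38-fold in the diabetic pair (log2 difference -0.46) and by 1.21-fold in the nondiabetic pair (-0.28). The diabetic and nondiabetic WT arrays differed by 0.01, and DM-KO stood at -0.18 against ND-KO.

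Noct encodes nocturnin, a rhythmic phosphatase of nicotinamide dinucleotides first known as a deadenylase-like protein. Its log2 intensity was 8.79 on DM-WT, 7.57 on ND-WT, 6.69 on DM-KO and 7.03 on ND-KO. On DM-WT, Noct stood 2.34-fold above ND-WT (log2 difference 1.22), rank 15 from the highest of 6055 genes measured on both arrays. In KO the sign was the other way, with DM-KO 1.27-fold below ND-KO (-0.34). Noct was 4.29-fold lower on DM-KO than on DM-WT (-2.10), rank 4 from the lowest of 6111 genes, and 1.45-fold lower on ND-KO than on ND-WT (-0.54). In the authors' values these 4 folds were 2.68, 1.51, 7.15 and 1.77. DM-WT was the highest array and DM-KO the lowest, and both KO arrays lay below both WT arrays. Its range over the 4 arrays, 2.10, was the widest of the 7 genes, whose other ranges ran between 0.46 and 0.94 with the unusable spots of Per2 and Cry1 at their own readings.

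**Figure D1:**
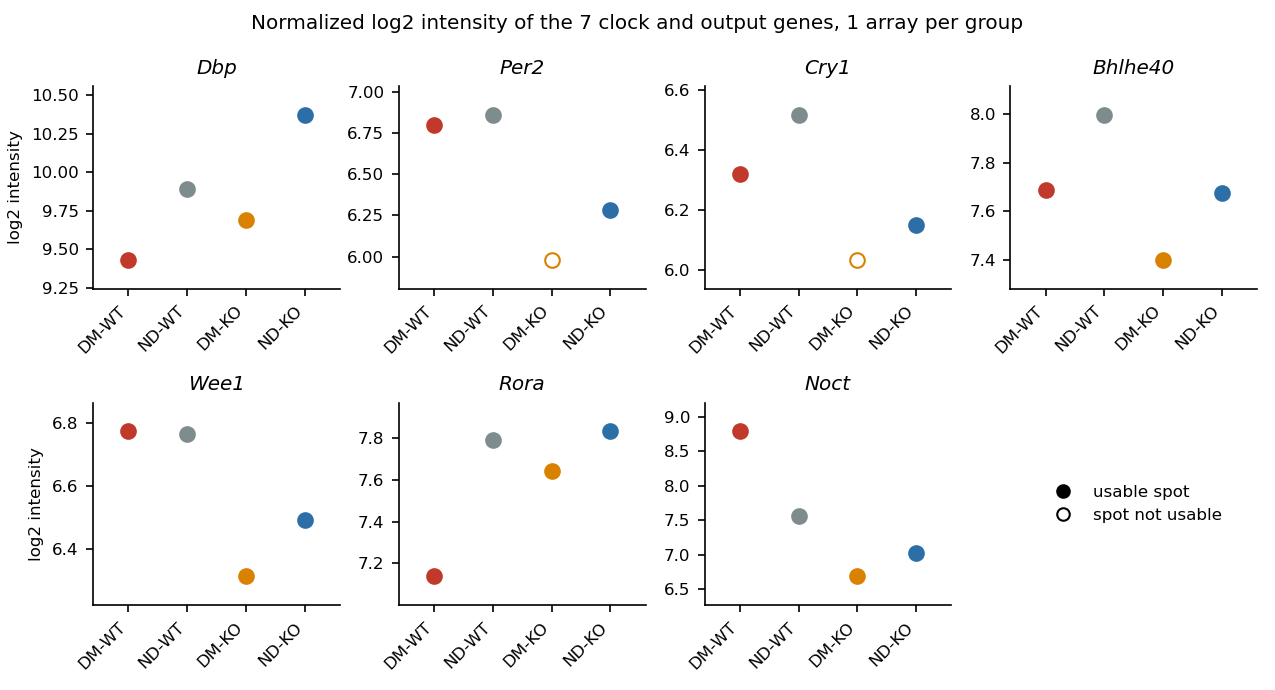
Normalized log2 intensity (vertical axis, with its own range in each panel that does not begin at 0) of each of the 7 genes on the DM-WT, ND-WT, DM-KO and ND-KO arrays; each point is 1 array, and open points mark spots that were not usable. Dbp lies lower on each diabetic array, Per2, Cry1, Wee1 and Noct lie lower on both KO arrays, and Noct peaks on DM-WT at 8.79.

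Sequences just before the annotated starts of 3 members are shown because the E-box is the site through which the loop acts and these 3 differ in their patterns. The RefSeq promoter table (build GRCm38.p6) held 4 of the 7 genes, Dbp, Cry1, Rora and Noct. The 250 bases before each start were searched on both strands for the E-box CACGTG, the E-box-like CACGTT, the D-box TTATGTAA or TTACGTAA, the ROR half-site AGGTCA, the cyclic AMP element TGACGTCA, the palindromic glucocorticoid element and its half-site AGAACA, which lies within it. Capitals mark matches, written 5′ to 3′ on the gene's strand, for Cry1 at chr10:85185055-85185304 (minus strand), Dbp at chr7:45704997-45705246 (plus strand) and Noct at chr3:51224197-51224446 (plus strand).
Cry1: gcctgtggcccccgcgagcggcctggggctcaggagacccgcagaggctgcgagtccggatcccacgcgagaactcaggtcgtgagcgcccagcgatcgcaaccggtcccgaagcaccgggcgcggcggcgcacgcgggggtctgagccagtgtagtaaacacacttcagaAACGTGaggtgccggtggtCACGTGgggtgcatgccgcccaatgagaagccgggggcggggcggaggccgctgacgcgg
Dbp: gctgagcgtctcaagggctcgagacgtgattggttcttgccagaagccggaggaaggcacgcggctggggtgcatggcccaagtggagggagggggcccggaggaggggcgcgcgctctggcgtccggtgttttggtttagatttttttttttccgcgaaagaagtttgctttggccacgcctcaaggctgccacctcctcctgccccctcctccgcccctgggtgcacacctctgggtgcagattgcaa
Noct: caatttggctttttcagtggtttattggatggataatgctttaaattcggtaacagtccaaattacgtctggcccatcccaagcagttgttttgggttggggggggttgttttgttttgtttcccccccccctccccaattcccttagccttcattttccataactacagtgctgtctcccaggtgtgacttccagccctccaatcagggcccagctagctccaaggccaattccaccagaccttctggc
Cry1 held an E-box that began 60 bases before the start and an E-box-like match that began 79 bases before it, read there on the other strand as AACGTG. No match to these letters was found in the windows of Dbp, Noct and Rora, and sites farther upstream or within the genes were not searched. Of 32851 promoters of the same length, 6.02% held CACGTG, 3.85% CACGTT, 0.931% a D-box, 14% AGGTCA, 1.55% TGACGTCA, 0.00913% the glucocorticoid element and 16.1% its half-site. A match is a description of the sequence and no measurement of binding, and a link between these sequences and the array values was not tested.

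The diabetes differences of the 7 are given here beside those of all genes. On DM-WT against ND-WT, 5 of 7 were lower and the median log2 difference was -0.20, beside a median of 0.00 over all 6055 genes, of which 49.9% were lower. Of the 7, 1 (Noct) was at least 1.5-fold higher and 1 (Rora) at least 1.5-fold lower, beside 1.75% and 0.875% of all genes, or 2.63% either way. With median scaling in place of quantile normalization, the split over all genes turned to 69 higher and 124 lower, against 106 and 53. On DM-KO against ND-KO, 5 of 5 measured on both arrays were lower with a median of -0.27, beside -0.01 over 6339 genes, of which 52.1% were lower. Of these, 1 (Dbp) was at least 1.5-fold lower, beside 0.505% of all genes, and none was higher by that much, beside 0.536% (1.04% either way). The 7 were chosen from these same contrasts, so nothing is read from these shares. Fewer cells of a type and less RNA per cell cannot be told apart in such bulk tissue.

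The WT and KO pairs share no array, and 5 of the 7 genes were measured on all 4. Of these 5, Dbp, Bhlhe40 and Rora were lower with diabetes in both genotypes, and none was higher in both. Of 5914 genes measured on all 4 arrays, 31.2% were lower in both. The gap between the WT and the KO diabetes difference was 1.57 for Noct, -0.46 for Rora, 0.22 for Dbp, 0.19 for Wee1 and -0.03 for Bhlhe40 on the log2 scale. Per2 and Cry1 have no measured gap, since their DM-KO spots were not usable. Of these 5, only that of Noct exceeded 1.5-fold, which 1.59% of the 5914 genes did. With 4 arrays in 4 groups this gap has no residual error and was not tested.

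Between genotypes the genes pointed in both directions. On DM-KO against DM-WT, 3 of 5 measured on both arrays were lower, with a median of -0.29 beside -0.01 over 6111 genes, of which 52.7% were lower. Of the 5, 1 (Noct) was at least 1.5-fold lower, beside 1.06% of all genes, and none higher, beside 0.769% (1.83% either way). The count leaves out Per2 and Cry1, not measured on DM-KO, which were lower there by at least 1.74-fold and at least 1.22-fold. In the authors' values Rora was 1.62-fold higher and Wee1 1.98-fold lower on DM-KO than on DM-WT. On ND-KO against ND-WT, 5 of 7 were lower, with a median of -0.32 beside 0.00 over 6258 genes, of which 49.3% were lower. None of the 7 was at least 1.5-fold different there, beside 0.623% of all genes either way (0.447% lower and 0.176% higher), although Per2 lay just short of it at 1.49-fold. Bhlhe40, Wee1 and Noct were lower on KO in both states and Dbp and Rora higher in both. Over the 5914 genes, 29.5% were lower in both. By at least 1.5-fold, 0 of the 5 were lower with diabetes in both genotypes, beside 0.186%, and 0 lower on KO in both states, beside 0.254%. The genotype pairs also share no array with each other, but each array serves 1 diabetes and 1 genotype comparison.

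**Figure D2:**
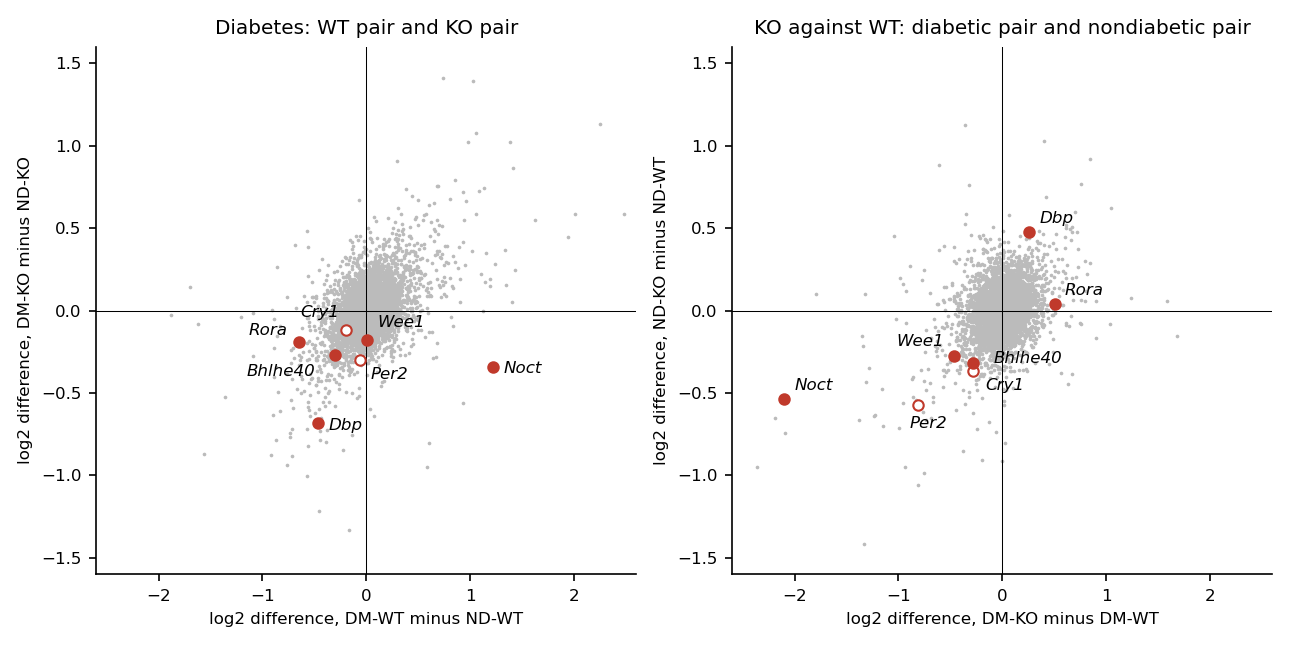
Log2 differences of 5914 genes measured on all 4 arrays (grey points) and of the 7 clock and output genes (red, open where a spot was not usable). Left, DM-WT minus ND-WT on the horizontal axis and DM-KO minus ND-KO on the vertical axis; right, DM-KO minus DM-WT and ND-KO minus ND-WT. Beyond the axes lie 4 grey points on the left and 3 on the right. Noct sits at 1.22 and -0.34 on the left and at -2.10 and -0.54 on the right.

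Tissue markers also differed between arrays. The summed scaled intensity of the 5 proximal tubule markers was 173 on DM-WT and 226 on ND-WT, 172 on DM-KO and 205 on ND-KO, so it was lower on both diabetic arrays, as Dbp was. The sum of the 3 thick limb and distal tubule markers was highest on DM-WT (205, against 145 on ND-WT) and 155 on DM-KO, against 152 on ND-KO. The sum of the 2 macrophage markers on the array was 6.01 on DM-WT and 2.91 on ND-WT, 4.48 on DM-KO and 3.21 on ND-KO, with 1 of the 2, C1qa, measured. The sum of the 2 red cell markers on the array, Hba-a1 and Alas2, was 5.14 on DM-WT and 89.2 on ND-WT, 96.1 on DM-KO and 97.0 on ND-KO. The Hba-a1 spot lay in the dim columns of DM-WT and was not measured there. DM-WT was also the array on which Rora was lowest and Noct highest. The 3 adipocyte markers on the array summed to 27.2 on DM-WT and 18.6 on ND-WT, 18.9 on DM-KO and 21.8 on ND-KO. Of these, Fabp4 was measured on all arrays, but Adipoq and Cfd on ND-KO alone. The 4 lymphocyte markers summed to 3.26 on DM-WT and 4.76 on ND-WT, 5.54 on DM-KO and 5.09 on ND-KO, with Cd79a measured on all arrays and Ptprc on DM-WT alone. The 4 endothelial markers summed to between 11.9 and 13.2 on all arrays. The part of these cell types in the values of the 7 genes was not tested.

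The other clock genes are what remains of a list chosen with earlier results of these data known, once the 7 were taken out. Their values are thus a description and no independent check. A list of 35 clock genes held 27 on the array, of which 20 are not among the 7. The other genes had a median log2 difference of 0.02 on DM-WT against ND-WT (8 of 13 measured higher), -0.03 on DM-KO against ND-KO (6 of 13 higher), -0.10 on DM-KO against DM-WT (4 of 12 higher) and -0.04 on ND-KO against ND-WT (5 of 14 higher). Of all genes, 49.9%, 52.1%, 52.7% and 49.3% were lower in these comparisons. None of the other clock genes reached 1.5-fold among those measured on both arrays. Several were dim, such as Per1 (6.35 to 6.48) and Cry2 (6.17 to 6.33), near the lowest usable values of the arrays (5.99 to 6.06). There the offset shrinks differences, and folds of single genes in the authors' values are not given for them. The medians in the authors' values were 0.06, -0.04, -0.22 and -0.005 in the same order of comparisons. Npas2, Bhlhe41 and Tef were not measured on any array, and Per3 and Csnk1e were measured on ND-KO alone. In the limma fit of all 4 arrays, with genotype and diabetes as additive terms and Benjamini-Hochberg adjustment over 6512 genes, 0 of the 15 other clock genes tested passed for diabetes or for genotype. At an unadjusted p under 0.05, 1 was higher for diabetes (Arntl) and 2 were lower for genotype, Nampt among them, where 12.8% and 9.09% of all genes were under that value. The same fit passed 1 gene of 6512 (0.0154%) for diabetes and 3 (0.0461%) for genotype.

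Among the activators, Arntl, the partner of CLOCK, had a log2 intensity of 6.46 on DM-WT and 6.17 on ND-WT, 6.46 on DM-KO and 5.88 on ND-KO, where it was not measured. It was higher by 0.29 with diabetes in WT, and in KO the DM-KO level was above that of ND-KO by at least 1.36-fold. The fitted diabetes difference, which takes the ND-KO spot at its own reading, was 0.44 (SE 0.094, adjusted p = 0.235 by limma) and did not pass. Both diabetic arrays thus lay above both nondiabetic arrays, the opposite direction to Dbp within each genotype. Arntl was dim, near the lowest usable values of the arrays (5.99 to 6.06), and a link to Dbp was not tested. Timeless and Csnk1d were also higher on the diabetic array in both genotypes, by 0.07 to 0.18. Clock was measured on 3 arrays, at 7.15 on ND-WT, 7.15 on DM-KO and 6.84 on ND-KO. Its DM-WT spot lay in the dim columns and was not usable, so the bound of at least 2.13-fold below ND-WT falls away with those spots left out.

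Among the repressors Per1 differed by 0.05 and 0.01 with diabetes in WT and KO, and Cry2 by -0.15 and -0.05. In the receptor loop, Nr1d2, a REV-ERB receptor, differed by -0.15 and -0.03 with diabetes. Nfil3, which opposes DBP at D-boxes, differed by at most 0.10 in any comparison.

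Of the outputs and modulators, Usp2, a rhythmic deubiquitinase, stood at 8.65 on DM-WT and 8.71 on ND-WT, 8.16 on DM-KO and 8.63 on ND-KO. The DM-KO array alone was low, by 0.47 against ND-KO and by 0.49 against DM-WT. Nampt, the limiting enzyme of NAD salvage and an E-box target, was lower on KO by 0.44 in the diabetic pair and by 0.28 in the nondiabetic pair, as Per2 and Wee1 were. Its fitted genotype difference was -0.36 (SE 0.072, adjusted p = 0.388 by limma). The kinases and ligases Csnk1d, Gsk3b and Btrc, which mark clock proteins for breakdown, differed by at most 0.21 in any comparison.

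**Figure D3:**
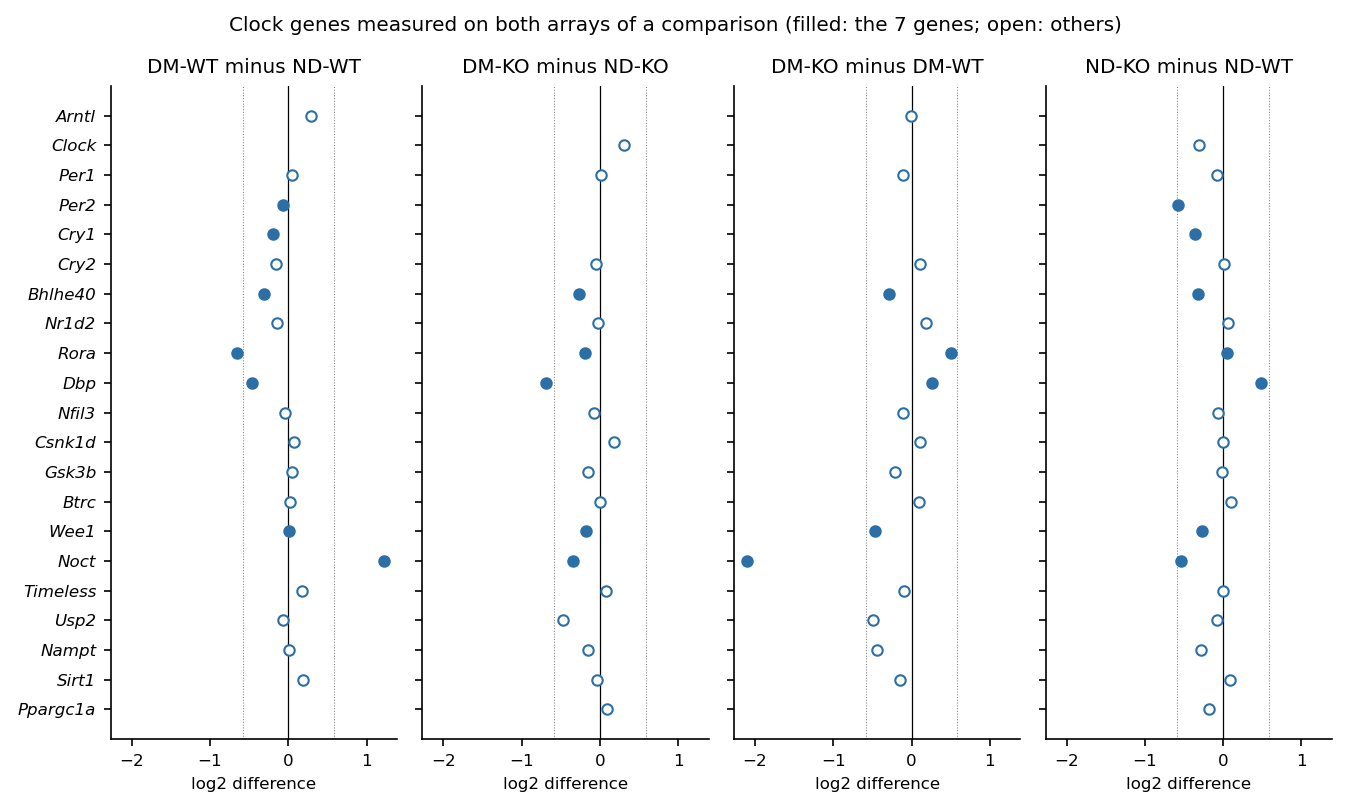
Log2 difference (horizontal axis) of the clock genes, 1 of them left out, in the 4 comparisons, drawn where both arrays were usable; filled points are the 7 genes and open points the others, and dotted lines mark 1.5-fold. The open points lie inside the dotted lines, and Noct at 1.22 and -2.10 lies farthest out.

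Genes tied to the clock by other routes were described in the same way. Of 12 genes that respond to glucocorticoids, hormones which rise each day and reset the clock in kidney, 10 were on the array and measured throughout. On DM-KO against DM-WT 10 of 10 were lower with a median of -0.49, 3 of them by at least 1.5-fold. On ND-KO against ND-WT 8 of 10 were lower with a median of -0.17, 2 of them by at least 1.5-fold. On DM-WT against ND-WT 7 of 10 were higher with a median of 0.30, 2 of them by at least 1.5-fold, and on DM-KO against ND-KO 4 of 10 were higher with a median of -0.02. The medians over all genes were -0.01, 0.00, 0.00 and -0.01 in the same comparisons, and 52.7%, 49.3%, 49.9% and 52.1% of all genes were lower. At least 1.5-fold lower were 1.06% of all genes on DM-KO against DM-WT and 0.447% on ND-KO against ND-WT, and at least 1.5-fold higher were 1.75% on DM-WT against ND-WT.

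Tsc22d3, a glucocorticoid-induced leucine zipper protein, had a log2 intensity of 10.10 on DM-WT and 10.18 on ND-WT, 8.95 on DM-KO and 9.48 on ND-KO. It was lower on both KO arrays than on both WT arrays, by a fitted -0.93 (SE 0.124, adjusted p = 0.303 by limma, not passed). Fkbp5, a co-chaperone of the steroid receptor, was lower on KO by 0.53 and 0.36. Pdk4, a kinase that spares glucose, was lower on KO by 0.86 and 0.40. Sgk1, a kinase that promotes sodium uptake, had values of 10.18 on DM-WT, 8.78 on ND-WT, 8.09 on DM-KO and 8.03 on ND-KO, the order Noct showed except for the last 2 arrays. Per1, a clock gene, is also on this list. Per2, Cry1, Bhlhe40, Wee1, Noct and Nampt were lower on KO arrays as most of this list was, while Dbp and Rora were higher in both states. The part of this list in the clock values was not tested.

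The PAR bZIP family, to which DBP belongs, is known to drive Por and Alas1, the partner of cytochromes P450 and the first enzyme of haem synthesis. Alas1 was lower on KO by 0.76 in the diabetic pair and by 0.61 in the nondiabetic pair, with a fitted difference of -0.69 (SE 0.071, adjusted p = 0.212 by limma). Dbp was higher on KO, by 0.26 and 0.48, and a link between the genes was not tested. With diabetes Alas1 differed by -0.07 and -0.22 and Por by -0.03 and -0.25 in WT and KO. Cirbp, a cold-inducible RNA-binding protein that follows body temperature over the day, was higher on KO by 1.05 and 0.62 (fitted 0.84, SE 0.122, adjusted p = 0.325 by limma). Rbm3, also cold-inducible, differed by -0.23 and -0.04 between the same arrays. By limma over all genes, 0 of 10 glucocorticoid genes and 0 of 10 genes of the remaining lists passed for either factor. At an unadjusted p under 0.05, 4 glucocorticoid genes were lower for genotype, and 1 was higher and 1 lower for diabetes, where 9.09% of all genes were under that value for genotype and 12.8% for diabetes. On the remaining lists, 3 were higher for diabetes, and 1 was higher and 2 lower for genotype. With median scaling Tsc22d3 passed (adjusted p = 0.0324, range over alternatives up to 0.564), and with the dim columns left out Alas1 passed (adjusted p = 0.0452, range up to 0.475).

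Among transport genes with a daily rhythm in kidney, Slc12a3, the thiazide-sensitive cotransporter, was higher with diabetes by 0.53 in WT and 0.32 in KO (fitted 0.43, SE 0.081, adjusted p = 0.213 by limma). Aqp2, the vasopressin-controlled water channel, was higher by 0.30 and 0.91. Scnn1a, a subunit of the epithelial sodium channel, was higher by 0.20 and 0.19, and lower on KO by 0.20 and 0.19. Of the 6 transport genes measured, 4 were higher with diabetes in WT and 5 in KO, with medians of 0.15 and 0.20. Over all genes the medians were 0.00 and -0.01, and 49.9% and 52.1% were lower. Atp1b1, a sodium pump subunit, differed by -0.04 and -0.10, and Edn1, which encodes endothelin-1, by -0.12 and 0.10. Slc12a3 and Aqp2 are themselves markers of distal tubule and collecting duct. The summed intensity of the 4 collecting duct markers was 43.3 on DM-WT and 40.7 on ND-WT, 47.2 on DM-KO and 32.3 on ND-KO, and its part in these values was not tested.

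**Figure D4:**
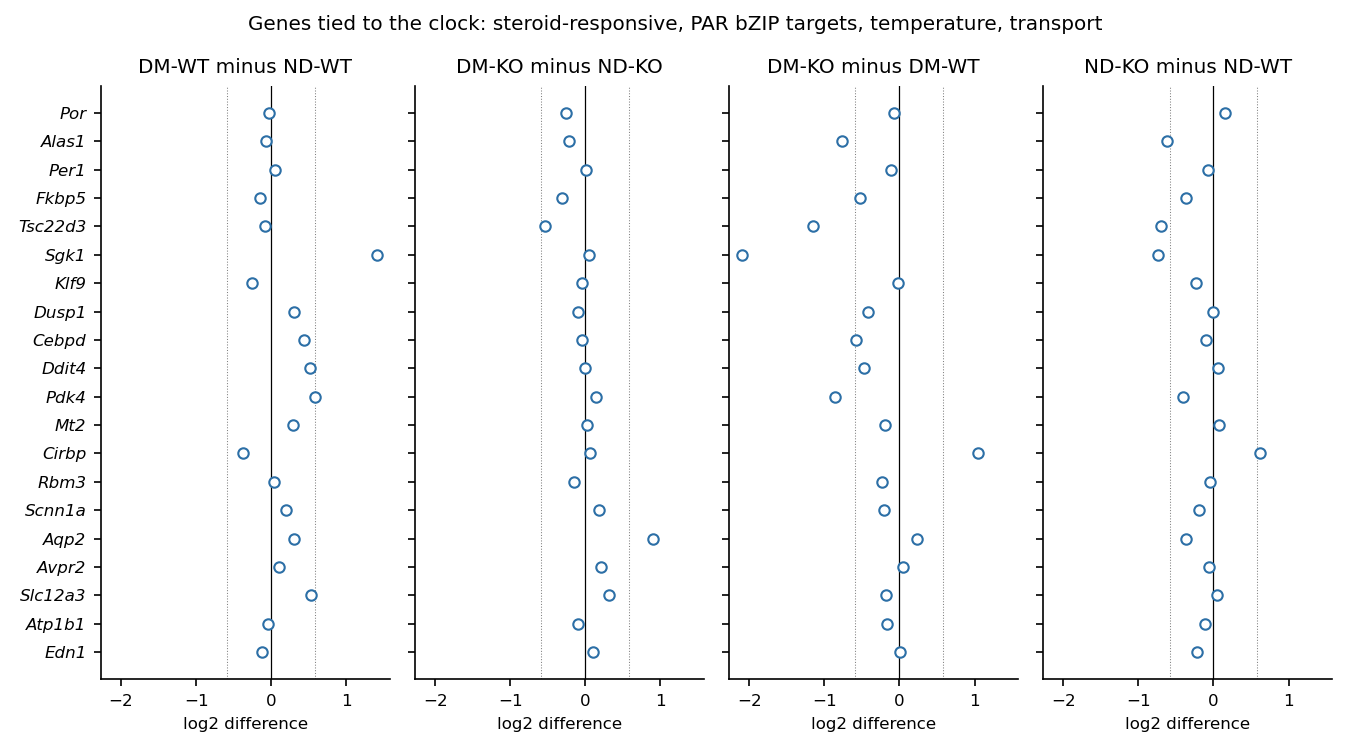
Log2 difference (horizontal axis) of genes that respond to glucocorticoids, targets of the PAR bZIP factors, temperature-responsive genes and rhythmic transport genes in the 4 comparisons; dotted lines mark 1.5-fold. Sgk1, Tsc22d3, Pdk4 and Alas1 lie left of the dotted line on DM-KO minus DM-WT, and Cirbp lies right of it.

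For the 4 members measured on all arrays with a range of at least 1.5-fold, the nearest of 5441 other genes were found by the Euclidean distance between gene-centred log2 values over the 4 arrays. Nearest to Dbp were Ggct (distance 0.18), Cndp2 (0.18) and Hoxa2 (0.18), each lower with diabetes in both genotypes and higher on KO in both states. Nearest to Bhlhe40 were Id3 (0.05), Maco1 (0.05) and Acox3 (0.10). Nearest to Rora were Furin (0.08), Sucnr1 (0.08) and Cckar (0.09), with DM-WT lowest for each. Nearest to Noct were Sgk1 (0.32), Pmaip1 (0.61) and Ddit3 (0.62), with DM-WT highest for each. On DM-KO against ND-KO they were higher, by 0.05, 0.22 and 0.17, where Noct was lower (-0.34). These distances rest on 4 arrays and describe shape alone.

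The size of a difference depended on the processing. In the authors' values, which subtract background with no offset and divide by a constant in place of quantile normalization, Per2 was 2.33-fold lower on ND-KO than on ND-WT, Cry1 1.94-fold and Wee1 1.47-fold, against 1.49-fold, 1.29-fold and 1.21-fold after the offset. For Wee1 on DM-KO against DM-WT the pair of folds was 1.98 and 1.38. For Dbp the fold on ND-KO over ND-WT was 1.38 and 1.39, but on DM-WT Dbp was 1.55-fold below ND-WT in the authors' values and 1.38-fold after the offset, so that it passed 1.5-fold in the authors' values, as it did with median scaling (-0.69). Arrays changed places for 2 genes, DM-WT with ND-WT for Wee1, where they differ by 0.01, and DM-WT with ND-KO for Bhlhe40, at 7.69 and 7.67 after the offset and 3.55 and 3.61 in the authors' values.

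**Figure D5:**
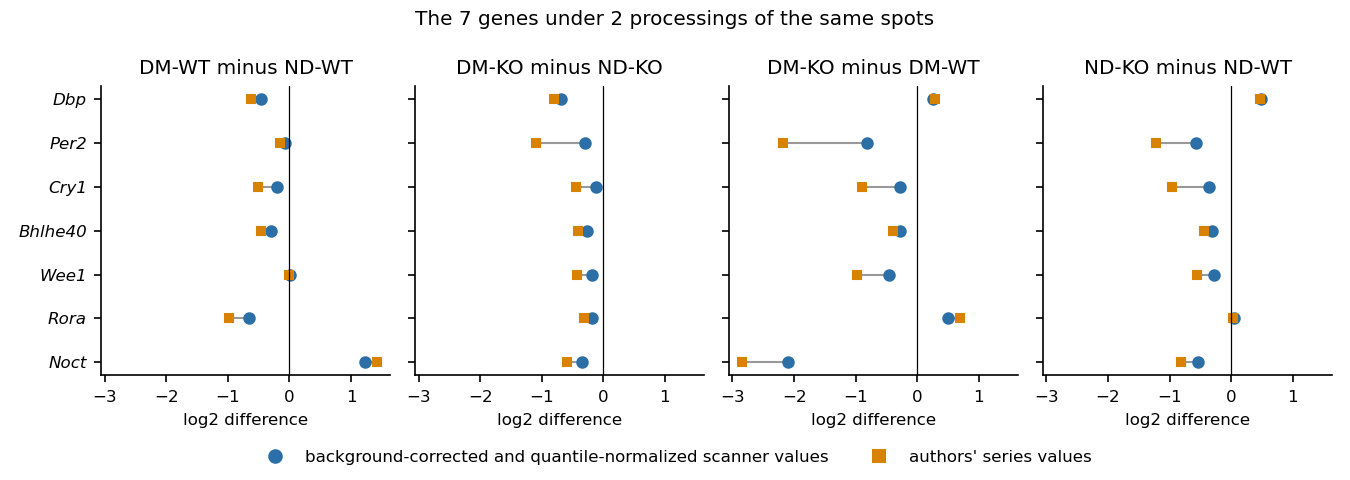
Log2 differences of the 7 genes in the 4 comparisons from the scanner values after background correction with an offset and quantile normalization (circles) and from the authors' series values (squares). The largest gaps are those of Per2, whose DM-KO spot was not usable, and of Noct on DM-KO minus DM-WT (-2.10 and -2.84).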

How the data were processed

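Biotin-labelled cRNA made from renal cortex RNA was put on CodeLink bioarrays, 1 for each group, and read on an Axon GenePix scanner, per the labels. The deposited scanner tables hold each spot's mean intensity and median local background on a linear scale, unscaled, per the file headers. The deposited series table holds intensity equal to spot mean minus background, divided by 1 constant per array, for 100% of compared probes within 0.1%. Its column medians were 0.930, 0.926, 0.930 and 0.929 for DM-WT, ND-WT, DM-KO and ND-KO. Genes were not centred, and how the constant was chosen stays unknown. Its values at or under 0.1 were set to that floor before log2.

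Scanner intensities were corrected with normexp (offset 50) over all spots and converted to log2 in limma 3.58.1 (R 4.3.3). Control spots were then left out, poor spots set to missing and the arrays quantile-normalized. Probes were named through the platform annotation (8923) or a transcript accession (285), 823 stayed unnamed and 1 carried several symbols. Where a gene had more than 1 probe, their mean was used. A fold against a spot that was not usable is a bound, against the higher of that spot's value and the lowest usable value of its array. Repeat spots of bacterial control probes varied by 7.20% to 7.69% (median coefficient of variation within an array), and the number of arrays limits the precision. The additive limma fit used 6512 genes measured on at least 2 arrays and left each gene 1 residual degree of freedom. In this fit the residual of a gene is the gap between its diabetes differences in WT and KO, with its variance drawn toward that of all genes. The p-values thus set an effect against that gap, and not against a spread of mice or of replicate arrays. All arrays were scanned in 1 session, each on its own slide, so no block could be fitted. The members, lists and tests were chosen with earlier results of these data known. Named were the 7 members, the genes of the lists, and the 3 nearest genes to each member with a range of at least 1.5-fold. The values of 1 gene of the clock list are not reported here, although counts over the list include it.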

Additional observations from a re-analysis of the deposited data

Results flagged for a closer look

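The diabetes difference of Noct pointed one way in WT and the other in KO. It was 1.22 on the log2 scale for DM-WT minus ND-WT and -0.34 for DM-KO minus ND-KO, so that the WT value exceeded the KO value by 1.57. With 1 array per group the difference was not tested.

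For Clock, the readings gave a gap of -1.73 between the WT and the KO diabetes difference, but its DM-WT spot was not usable and lay in the dim columns of that array. No direction is taken for its WT pair, DM-KO stood 0.30 above ND-KO, and the difference was not tested.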

How the results depend on the processing

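Of 35 log2 values of the 7 genes, 34 or 35 kept their sign under each of 6 alternatives, as did all 29 of those above 0.15 in size. The value that turned was that of Wee1 on DM-WT against ND-WT. Taking the brightest probe could change nothing, since each of the 7 had 1 probe. Leaving out the dim columns could act only through the normalization, as none of the 7 lay there. The 35 include values that rest on the unusable DM-KO spots of Per2 and Cry1. In size, 21 of the 35 moved beyond the spread of repeat control spots with the series values. With an offset of 16 it was 12, with median scaling 2 and with no background correction 0. Counts at 1.5-fold are given as higher and lower, in the order DM-WT against ND-WT, DM-KO against ND-KO, DM-KO against DM-WT and ND-KO against ND-WT, and were 106 and 53, 34 and 32, 47 and 65, and 11 and 28. With an offset of 16 they were 171 and 93, 61 and 54, 74 and 112, and 26 and 52, and 3 of the 7 genes passed in each genotype comparison. On DM-KO against DM-WT these were Rora, higher (0.63), and Wee1 and Noct, lower (-0.73 and -2.56). On ND-KO against ND-WT they were Per2, Cry1 and Noct, all lower (-0.90, -0.64 and -0.68). With the series values the counts over all genes were 213 and 187, 87 and 105, 106 and 159, and 66 and 82. There 3 of the 7 passed on DM-WT against ND-WT, against 2, Dbp being gained at -0.63 (-0.69 with median scaling, which also gave 3). On DM-KO against ND-KO 2 passed, Dbp and Noct, both lower. On DM-KO against DM-WT 3 passed, Rora higher (0.70) and Wee1 and Noct lower (-0.98 and -2.84). On ND-KO against ND-WT 3 passed, Per2, Cry1 and Noct, all lower. The gap between diabetes differences passed 1.5-fold for Noct (2.02), Rora (-0.67) and Per2 (0.95). That of Per2 rests on its DM-KO spot, which was not usable. The share of all genes past that gap was not counted for these values. At 2-fold the counts over all genes were 27 and 10, 9 and 3, 7 and 19, and 3 and 3. There 1 of the 7 was past it on DM-WT against ND-WT and 0 on DM-KO against ND-KO. Median scaling gave 69 and 124 on DM-WT against ND-WT. Without a filter on dim probes, 90 were lower there, 93 higher on DM-KO against DM-WT (2 of the 7 passed) and 18 higher on ND-KO against ND-WT. With no background correction 1 of the 7 passed on ND-KO against ND-WT. By limma, diabetes passed 1 gene higher and 0 lower, and genotype 2 higher and 1 lower. Median scaling passed 30 higher and 52 lower for diabetes, and 7 and 7 for genotype. Leaving out the dim columns passed 52 and 43 for diabetes and 10 lower for genotype. For diabetes 0 were higher with offset 16, no background correction, the series values, an intensity trend or no covariate, where 649 to 830 had an unadjusted p under 0.05. For genotype, offset 16 left 1 higher and 0 lower, the series values 0 and 0, and genes measured on all 4 arrays 0 higher, with 602, 513 and 573 at an unadjusted p under 0.05. With no background correction, an intensity trend or no covariate, 0 were lower for genotype, where 372 to 595 had an unadjusted p under 0.05. The cause of these shifts was not tested. No paired analysis was possible because each group has 1 array, which also leaves no replicate to leave out. Signal near background limits Per2 and Cry1, whose DM-KO spots were not usable, and dim genes outside the 7 such as Arntl, Per1 and Cry2.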
